A study of Mus musculus with 6 samples.

Results

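The hormones of the pancreatic islet and the proteins of their secretory granules were examined in medullary thymic epithelial cells with and without the transcriptional regulator Aire. The members were insulin (Ins1, Ins2), islet amyloid polypeptide (Iapp), glucagon (Gcg), somatostatin (Sst), pancreatic polypeptide (Ppy), the chromogranins Chga and Chgb, and the prohormone convertases Pcsk1 and Pcsk2. A probe set counted as a member if the platform annotation named only that gene. By this rule 8 of 10 genes were found, out of 8251 genes that the array names singly, with 12 of its 12488 probe sets, and Ins1 and Pcsk2 were dropped because the annotation named neither. No probe set naming several genes included a member (0).

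The cells came from B6/129 F2 mice 3 to 5 weeks old, either wild type or carrying disruptions of both copies of Aire (aire-/-). Each array held the amplified RNA of 1 pool of 5 thymi from animals of both sexes, with 3 arrays per genotype and hence 15 thymi behind each group. The sort took cells that were CD45-, G8.8+, CDR1int and B7.1hi, so that blood cells were gated out and the mature, costimulatory medullary cells were kept. How Aire was disrupted is not stated in the labels.

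Islet hormones are made as precursors, which enter dense-core secretory granules and are cut there at pairs of basic residues by prohormone convertases. Beta cells make insulin and islet amyloid polypeptide, alpha cells glucagon, delta cells somatostatin and PP cells pancreatic polypeptide, while chromogranins are acidic proteins that help to form the granule core in many endocrine cells. Medullary thymic epithelial cells transcribe many genes of peripheral tissues, insulin among them, and thereby display self antigens to developing T cells. Aire drives a large part of this ectopic transcription.

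The proximal promoters of 4 members are shown because Ppy and Chgb gave the calls described below, Iapp lay just outside the threshold, and Chga gave nearly equal signals in both genotypes on its brighter probe set. They are RefSeq sequences of build GRCm38.p6, the 250 bases before the annotated start, written 5′ to 3′ along the gene. Capitals mark a TATA box (TATAAA) or a cyclic AMP response element (TGACGTCA), on either strand. The Iapp sequence is chr6:142298175-142298424 on the + strand, Ppy chr11:102101320-102101569 on the - strand, Chga chr12:102554691-102554940 on the + strand and Chgb chr2:132781392-132781641 on the + strand.
Iapp: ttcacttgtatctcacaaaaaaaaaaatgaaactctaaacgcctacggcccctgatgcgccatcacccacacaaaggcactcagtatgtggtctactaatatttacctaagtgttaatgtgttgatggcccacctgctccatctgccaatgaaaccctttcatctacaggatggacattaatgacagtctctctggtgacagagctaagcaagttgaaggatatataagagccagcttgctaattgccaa
Ppy: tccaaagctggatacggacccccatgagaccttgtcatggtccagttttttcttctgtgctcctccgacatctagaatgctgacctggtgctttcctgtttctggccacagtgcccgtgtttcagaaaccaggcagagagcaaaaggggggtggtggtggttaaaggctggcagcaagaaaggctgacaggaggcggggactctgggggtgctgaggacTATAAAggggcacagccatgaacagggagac
Chga: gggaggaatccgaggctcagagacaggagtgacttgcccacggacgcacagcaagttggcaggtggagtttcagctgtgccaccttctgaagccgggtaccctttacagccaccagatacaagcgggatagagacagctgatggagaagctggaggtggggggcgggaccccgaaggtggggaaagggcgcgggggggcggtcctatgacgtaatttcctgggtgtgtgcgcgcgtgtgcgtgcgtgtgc
Chgb: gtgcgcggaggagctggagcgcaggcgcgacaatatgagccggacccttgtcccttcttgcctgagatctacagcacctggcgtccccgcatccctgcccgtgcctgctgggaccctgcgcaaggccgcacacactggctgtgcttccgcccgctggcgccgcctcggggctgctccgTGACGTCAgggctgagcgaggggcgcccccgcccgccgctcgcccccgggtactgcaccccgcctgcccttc

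Entries were found for 9 of the 10 genes; Ins2 was not among them. A full cyclic AMP response element, the site bound by CREB, lay 72 bases before the start of Chgb, 48 before that of Sst and 78 before that of Pcsk1, thus in 3 of 9 member promoters, whereas 1.55% of 32841 mouse promoters of the same length held it. TATAAA was found in 2 of 9, once in Ppy, 31 bases before the start, and 2 times in Gcg, against 12.4% of all promoters. The E box CANNTG, a site of basic helix-loop-helix factors, was found in 7 of 9 (66.2% of all promoters), and the GC box GGGCGG in 3 of 9 (32.7%). E boxes were absent from the windows of Ppy and Pcsk1. Chgb and Ppy did not share any of these motifs: the Chgb window held the response element, an E box and GC boxes, while that of Ppy held TATAAA alone. Only exact matches to these letters were sought, so variants of a site were neither counted nor marked. A match in this window is a description and not a binding site.

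Signals are in arbitrary units after quantile normalization and cannot be set against each other between probe sets. Values below 1.8 were raised to that floor before taking log2, and a signal under 5.53, the 40th percentile of all signals, is called dim. For a group that was dim on every one of its arrays, a fold of "at least" is printed, which is the mean of the other group over 5.53. Probe sets brighter than this limit on at least 3 of the 6 arrays were tested with limma over all 7768 such probe sets with Benjamini-Hochberg adjustment, at a threshold of 0.05. Group values are geometric means with SDs on the log2 scale. Of the whole table, 107 probe sets (1.38%) were lower and 27 (0.348%) higher in Aire-deficient cells, so that 79.9% of calls were lower. That share was 59% on the values as deposited and 63.8% with arrays scaled to the same median, and both scalings moved the median change of all probe sets from 0.05 to 0.17. The beta-actin signal at the 3′ end over that at the 5′ end, a sign of RNA quality or amplification, was 95.8 on wild-type array 2 and 4.38 to 13.8 elsewhere. The probe set of Aire itself gave 59.9, 96.4 and 138 in wild type and 202, 297 and 211 in Aire-deficient cells (adjusted p = 0.0918 in limma, or 0.0191 with the replicate number as a block), and it does not check the labels, since its place in the transcript is unknown here.

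Islet transcripts were lower in Aire-deficient cells on 3 probe sets, 1 each for insulin, pancreatic polypeptide and chromogranin B, and no member probe set was called higher (0). The falls ranged from 4.68-fold for Chgb to 7.61-fold for Ppy 94148_at, and insulin fell at least 5.65-fold. These sizes depended in part on the floor. With the floor at the dim limit the log2 change went from -2.93 to -2.53 for Ppy 94148_at and from -2.23 to -2.04 for Chgb. The other Ppy probe set, which was not called, was 3.03-fold lower. Only 7 of the 12 member probe sets, from 5 genes, were bright enough to be tested, and 3 of those 7 were called lower. Of the called probe sets, Ins2 100150_f_at passed that limit through its wild-type arrays alone. Ppy 94148_at and Chgb 92841_f_at, with 1 and 2 Aire-deficient arrays above it, also needed wild-type arrays to pass. The share called is therefore not that of an unselected set. On each wild-type array 8 of the 12 member probe sets exceeded the dim limit, and on the Aire-deficient arrays 6, 4 and 5 did. In sorted bulk RNA, fewer cells carrying a transcript and less transcript per cell cannot be told apart.

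**Figure D1:**
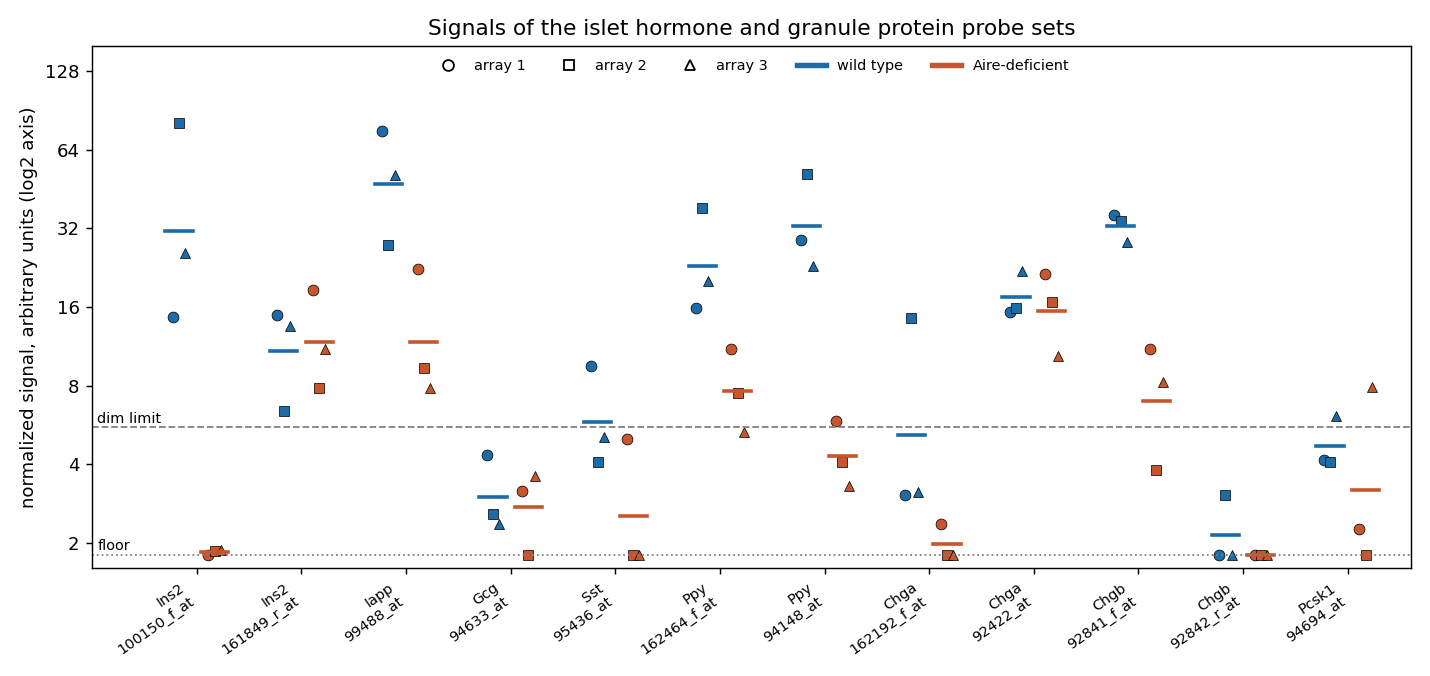
Normalized signal (arbitrary units, log2 axis) of each of the 12 member probe sets on the 3 wild-type arrays (blue) and the 3 Aire-deficient arrays (orange), with marker shape for the replicate number, short lines for geometric means, a dashed line at the dim limit of 5.53 and a dotted line at the floor of 1.8. The groups are separated for Ins2 100150_f_at, Iapp, both Ppy probe sets, Chga 162192_f_at and Chgb 92841_f_at, and overlap for the other 6.

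Insulin is the hormone that lowers blood glucose, and Ins2 is the mouse gene that corresponds to the single human one. Its probe set 100150_f_at measured 14.7, 80.8 and 25.9 in the wild-type pools, in the order of their numbers, and 0.467, 1.87 and 1.88 in the Aire-deficient ones; the same order holds throughout. All wild-type arrays were well above the dim limit and all Aire-deficient arrays lay near or under the floor, so the groups did not overlap. The mean went from 31.3 (SD 1.25, n = 3) to 1.85 (SD 0.03, n = 3), a fall of at least 5.65-fold (limma adjusted p = 0.00691). The fitted log2 change of -4.08 ± 0.58 (SE) was set in part by the floor: it was -2.50 (adjusted p = 0.0347) with the floor at the dim limit and -4.46 (adjusted p = 0.0117) with the floor at the 10th percentile. This probe set was tested through its wild-type arrays alone. The wild-type SD was among the widest of the members because array 2 was far above the other arrays. Without that array the log2 change was -3.40 (adjusted p = 0.0433), and with a covariate for the 3′ bias of each array it was -3.32 (adjusted p = 0.00955). Without wild-type array 3 the call was lost (log2 change -4.22, adjusted p = 0.0537).

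The second Ins2 probe set, 161849_r_at, gave no such difference. Its signals were 14.9, 6.38 and 13.5 in wild type and 18.5, 7.83 and 11.1 in Aire-deficient cells, all above the dim limit and overlapping throughout. The log2 change was 0.11 ± 0.46 (SE, limma adjusted p = 0.942), with a 95% interval from -0.90 to 1.11. That interval does not reach -2.50, the change of the first probe set with the floor at the dim limit. The array where 100150_f_at was brightest, wild-type array 2, was the one where 161849_r_at was dimmest. Probe set names ending in _f mark designs that can bind several members of a gene family. Ins1 and Ins2 are close relatives, so 100150_f_at may report on both insulins, which was not tested. Among the members Ppy 162464_f_at, Chga 162192_f_at and Chgb 92841_f_at, the probe set behind the Chgb call, carry the same ending. Names ending in _r mark probe sets for which some of the usual probe selection rules were dropped.

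Islet amyloid polypeptide is secreted from beta cells along with insulin. Its probe set 99488_at measured 75.4, 27.5 and 51.2 in wild type and 22.3, 9.35 and 7.83 in Aire-deficient cells. The lowest wild-type array was above the highest Aire-deficient array, and all 6 arrays were above the dim limit. The means were 47.4 (SD 0.73, n = 3) and 11.8 (SD 0.81, n = 3), a log2 change of -2.01 ± 0.48 (SE, 95% interval -3.07 to -0.95), which missed the threshold (limma adjusted p = 0.067). Blocking on replicate number brought the adjusted p to 0.00484. It was also under the threshold without Aire-deficient array 1 (0.0328) and with the 3′ bias covariate (0.0111). Iapp was called in 5 of 19 alternatives. The call was missed without any other single array, with adjusted p from 0.0651 without wild-type array 2 to 0.256 without Aire-deficient array 2. With no filter on dim signals the adjusted p was 0.291. In each genotype array 1 gave the highest Iapp signal.

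Pancreatic polypeptide is a peptide of the islet PP cells and acts on gut and pancreas through a Y-type receptor. Probe set 94148_at measured 28.9, 51.9 and 23.1 in wild type and 5.85, 4.07 and 3.30 in Aire-deficient cells, where only array 1 exceeded the dim limit. The means were 32.6 (SD 0.60, n = 3) and 4.28 (SD 0.42, n = 3), and the transcript fell by 2.93 ± 0.41 on the log2 scale (SE, limma adjusted p = 0.00639). This call was kept whichever single array was left out, with adjusted p from 0.00788 to 0.0362. Among the alternatives that tested this probe set it was lost with no filter on dim signals (adjusted p = 0.0932).

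The other Ppy probe set, 162464_f_at, moved the same way by less. It measured 15.9, 38.3 and 20.1 in wild type and 11, 7.48 and 5.33 in Aire-deficient cells, again without overlap. The log2 change was -1.60 ± 0.43 (SE, 95% interval -2.54 to -0.66), which missed the threshold (limma adjusted p = 0.0995) and passed it with the replicate block (0.036). Without both arrays numbered 2 the blocked call was lost (log2 change -1.22, adjusted p = 0.219). On both Ppy probe sets wild-type array 2 was the brightest, and the order of the Aire-deficient arrays was 1, 2, 3 from bright to dim.

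Glucagon, which raises blood glucose, gave a dim signal in both genotypes: probe set 94633_at measured 4.35, 2.58 and 2.37 in wild type and 3.15, 0.467 and 3.62 in Aire-deficient cells. No array reached the dim limit (0 of 6), and the probe set was not tested. Somatostatin, which restrains the release of insulin and glucagon, measured 9.55, 4.07 and 5.09 in wild type and 4.98, 1.57 and 0.817 in Aire-deficient cells on 95436_at. Only wild-type array 1 exceeded the dim limit. Fitted without a filter, Sst had a log2 change of -1.20 ± 0.56 (SE, limma adjusted p = 0.514) and Gcg one of -0.13 ± 0.37 (SE, adjusted p = 0.948). At these signals a difference in Gcg was not detectable.

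Chromogranin B is a soluble matrix protein of secretory granules. Its probe set 92841_f_at measured 36.1, 34.1 and 28.5 in wild type and 11, 3.78 and 8.23 in Aire-deficient cells. The wild-type arrays lay close together, the Aire-deficient arrays were all lower, and array 2 of the latter was dim. The means were 32.7 (SD 0.18, n = 3) and 7 (SD 0.80, n = 3), and the log2 change was -2.23 ± 0.42 (SE, limma adjusted p = 0.0276). It was called without Aire-deficient array 1 (adjusted p = 0.0209) and lost without any other single array: the adjusted p was 0.0878, 0.0895 and 0.082 without wild-type arrays 1, 2 and 3, and 0.0978 and 0.068 without Aire-deficient arrays 2 and 3. The direction and size held in those fits, with log2 changes from -2.55 to -1.78. The second Chgb probe set, 92842_r_at, was dim on every array, at 1.55, 3.05 and 0.667 in wild type and 0.467, 1.17 and 0.2 in Aire-deficient cells.

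Chromogranin A, the best known granule marker of endocrine cells, behaved differently from chromogranin B on its brighter probe set. On 92422_at it measured 15.3, 15.9 and 22 in wild type and 21.3, 16.7 and 10.4 in Aire-deficient cells. These ranges overlapped, and the log2 change was -0.18 ± 0.36 (SE, 95% interval -0.98 to 0.63, limma adjusted p = 0.87). The interval for Chgb, -3.14 to -1.31, lies wholly below it, although the difference between the genes was not itself tested. The dim probe set 162192_f_at gave 3.05, 14.5 and 3.13 in wild type and 2.37, 1.67 and 1.05 in Aire-deficient cells, so only wild-type array 2 exceeded the dim limit, and it was not tested.

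Prohormone convertase 1, encoded by Pcsk1, cuts proinsulin and many other precursors. Probe set 94694_at measured 4.15, 4.07 and 6.10 in wild type and 2.25, 0.567 and 7.93 in Aire-deficient cells. The groups overlapped, array 3 was the highest in each genotype and the only one above the dim limit, and the probe set was not tested. Without a filter the log2 change was -0.56 ± 0.63 (SE, limma adjusted p = 0.758).

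**Figure D2:**
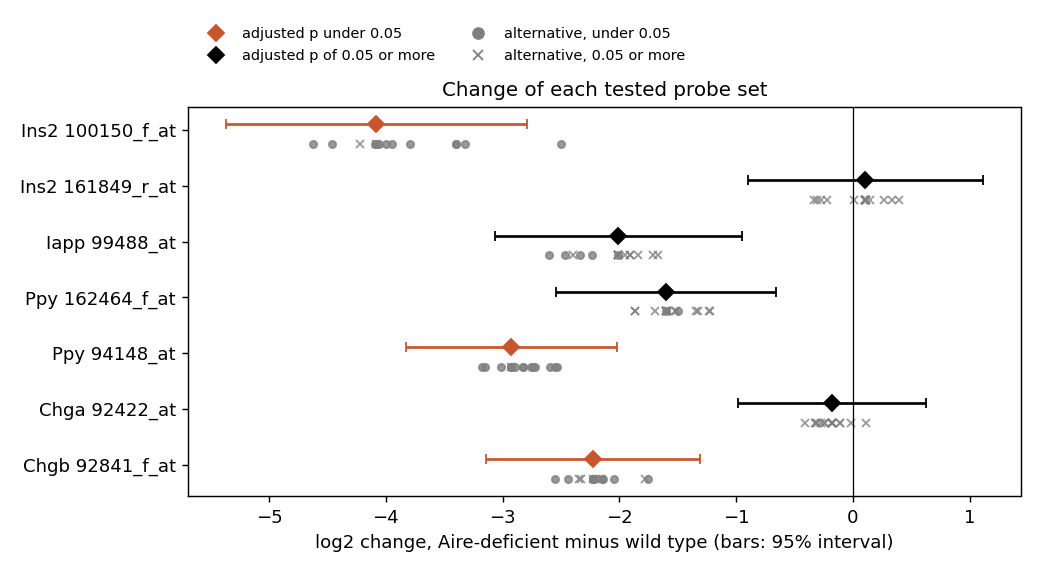
Log2 change (Aire-deficient minus wild type) of the 7 tested member probe sets with 95% intervals, orange where the limma adjusted p was under 0.05, and below each in grey its value under every alternative setting that tested it (dots under 0.05, crosses 0.05 or more). Ins2 100150_f_at, Ppy 94148_at and Chgb 92841_f_at are orange at -4.08, -2.93 and -2.23, while Ins2 161849_r_at and Chga 92422_at lie near 0 with alternatives on both sides of it.

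Of the 7 tested member probe sets, 5 had no overlap between the groups, all of them lower in Aire-deficient cells. Chga 162192_f_at, too dim to be tested, was also lower without overlap. Among all probe sets tested, 10.1% were lower without overlap and 10.4% higher without overlap. As a description, the median log2 change of the 7 tested member probe sets was -2.01, beside 0.05 over all probe sets tested. Nothing is read from that median or from the 5 of 7, since Ins2 100150_f_at was among the 7 through its bright wild-type arrays alone. Both Ppy probe sets and Chgb 92841_f_at also needed wild-type arrays to be tested, being above the dim limit on only 1 or 2 Aire-deficient arrays. With every probe set fitted and no filter, none of the 12 was called (0) and all but Ins2 161849_r_at lay below 0. In that fit 10 probe sets were lower and 6 higher over the whole table, with 721 and 669 at an unadjusted p under 0.05. With the replicate block 5 member probe sets were called, adding Iapp and Ppy 162464_f_at, where 262 probe sets were lower and 150 higher over the whole table. Without wild-type array 3 only 1 member call was left, that of Ppy 94148_at.

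The wild-type pools did not agree on which array was highest. Array 2 gave the highest wild-type signal for 5 of the 12 member probe sets, namely Ins2 100150_f_at, both of Ppy, Chga 162192_f_at and Chgb 92842_r_at. Array 1 was highest for another 5, which were Ins2 161849_r_at, Iapp, Gcg, Sst and Chgb 92841_f_at, and array 3 for 2, Chga 92422_at and Pcsk1. Little weight falls on the order of the dim probe sets. Gcg and Chgb 92842_r_at were dim on every wild-type array, and Sst, Chga 162192_f_at and Pcsk1 exceeded the dim limit on 1 each. Insulin on 100150_f_at and Iapp, which are made by the same islet cell, exceeded it on every wild-type array and differed in order. Insulin was lowest on the wild-type array where Iapp was highest. As a description over 6 arrays, which share the genotype difference, the Pearson correlation of log2 signals was 0.67 between Ins2 100150_f_at and Iapp, 0.97 between Ins2 100150_f_at and Ppy 94148_at, and 0.87 between Iapp and Chgb 92841_f_at. The beta-actin ratio was highest on wild-type array 2, and its part in the signals of that array was addressed only by the covariate and by leaving the array out.

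For 4 genes a pair of probe sets could be set against each other. The difference of their log2 signals on each array was compared between genotypes by a 2-sided exact permutation test over arrays, in which 3 against 3 arrays cannot give a p under 0.1. For Ins2, 100150_f_at minus 161849_r_at was -0.02, 3.66 and 0.94 in wild type and -3.36, -2.07 and -2.55 in Aire-deficient cells. The genotypes did not overlap (exact p = 0.1, adjusted 0.133 over the 4 genes). The size of this difference depended on the floor, because 100150_f_at was dim on all Aire-deficient arrays: the change of 100150_f_at minus that of 161849_r_at was -2.61 with the floor at the dim limit, -4.19 with the floor used throughout and -4.57 with the floor at the 10th percentile. For Ppy, the change of 162464_f_at was higher than that of 94148_at by 1.33 (exact p = 0.1), or by 0.95 with the floor at the dim limit. For Chgb the change of 92841_f_at minus that of 92842_r_at, which was dim throughout, was -1.97 (exact p = 0.1), and it was -1.45 (exact p = 0.2) with the floor at the 10th percentile. The Chga difference, 162192_f_at minus 92422_at, was -1.21 (exact p = 0.2) and overlapped, and with the floor at the dim limit it was -0.28 (exact p = 0.7).

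**Figure D3:**
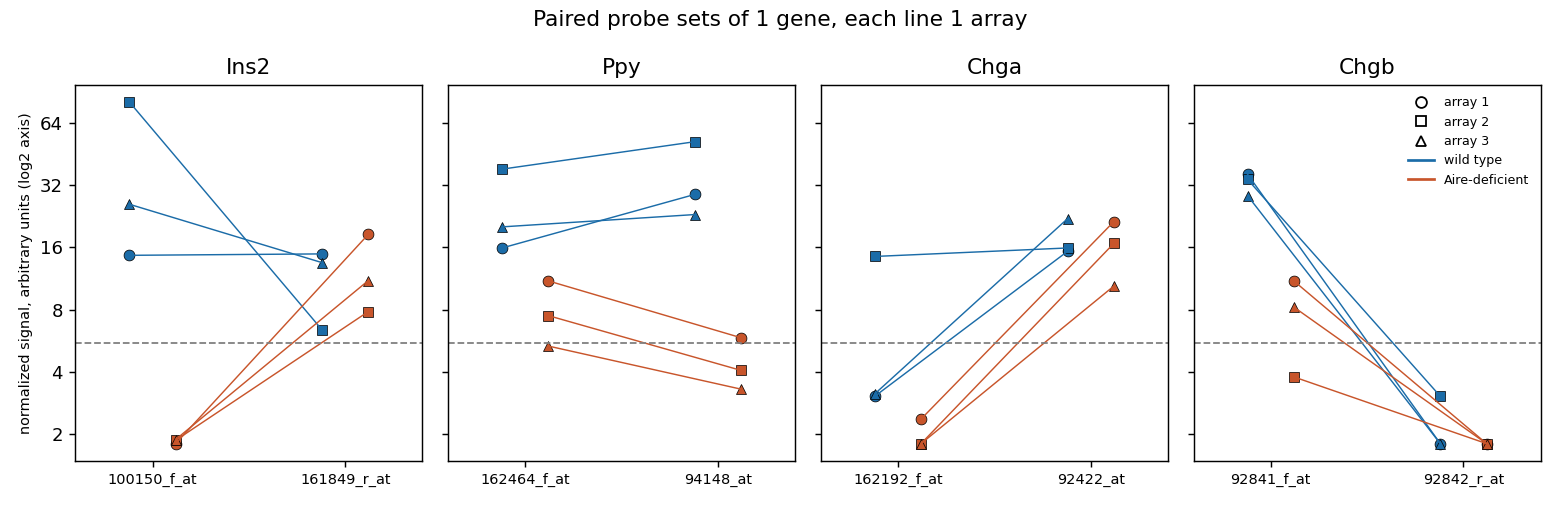
Normalized signal (arbitrary units, log2 axis, values under the floor drawn at it) on both probe sets of Ins2, Ppy, Chga and Chgb, with 1 line per array, blue for wild type and orange for Aire-deficient, and a dashed line at the dim limit. The Ins2 lines slope down or run level in wild type and rise steeply in Aire-deficient cells, while the Ppy lines of both genotypes keep their separation; levels of different probe sets are not comparable.

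Other genes tied to the islet hormones, in lists of granule machinery, islet transcription factors, glucose sensing and hormone receptors, showed no calls in either direction. The 4 lists held 67 genes, of which 51 had probe sets, and 33 of the 63 probe sets, from 28 genes, were bright enough to be tested. None was called lower and none higher (0 and 0), beside 1.38% and 0.348% of all probe sets tested. At such shares, no call among 33 probe sets does not set the lists apart from the whole table. Their median log2 change was -0.06, against 0.05 over all, and 20 of the 33 lay below 0.

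The granule machinery list covers the proteins that sort, trim and release granule cargo. Of its 17 tested probe sets the median log2 change was -0.01. Secretogranin II (Scg2), a relative of the chromogranins, had the largest difference, with 6.20, 10.5 and 9.75 in wild type and 1.80, 0.733 and 2.37 in Aire-deficient cells. These groups did not overlap, and Scg2 was tested through its wild-type arrays alone, since all Aire-deficient arrays were dim. The ratio of wild type over Aire-deficient was at least 1.55 and missed the threshold (limma adjusted p = 0.112), which it passed without a variance trend (adjusted p = 0.02). Resp18, a protein of neuroendocrine granules, went the other way, with 65.2, 45.1 and 44.8 in wild type and 139, 137 and 66.5 in Aire-deficient cells. Its log2 change was 1.09 ± 0.36 (SE, limma adjusted p = 0.191, or 0.0463 with the replicate block). The small GTPase gene Rab3a, whose product acts in exocytosis, had a log2 change of 0.90 (adjusted p = 0.446). The carboxypeptidase Cpe, which trims the basic residues left by the convertases, measured 64.6, 25.4 and 28.5 in wild type and 69.6, 17.4 and 25 in Aire-deficient cells on 99643_f_at (log2 change -0.21, adjusted p = 0.9); it was singled out after its values were seen.

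Islet transcription factors were mostly dim. Of 11 probe sets 5 were tested, with a median change of -0.08. Pdx1, a master regulator of pancreas and beta cells, measured 0.817, 0.767 and 0.3 in wild type and 5.18, 3.23 and 0.567 in Aire-deficient cells, and Neurog3, the factor that specifies endocrine precursors, did not exceed 1.55 on any array. Both were named after their values were seen. Myt1, a zinc finger factor of endocrine and neural precursors, measured 12.3, 21.8 and 13.8 in wild type and 7.07, 8.28 and 5.80 in Aire-deficient cells (log2 change -1.14 ± 0.38, SE, limma adjusted p = 0.185). Insm1, a zinc finger factor of endocrine cells, measured 36, 30.1 and 49.3 against 59.2, 54.9 and 65.9 (log2 change 0.67 ± 0.31, SE, limma adjusted p = 0.362). Neither group pair overlapped, and the 2 factors differed in direction. Isl1, a LIM homeodomain factor, overlapped (log2 change -0.35, adjusted p = 0.874).

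Genes of glucose sensing and the receptors of the hormones were also without calls. The glucose sensing list had 6 tested probe sets with a median of -0.21. Its smallest p values belonged to Ero1b, an oxidase that forms the disulfide bonds of proinsulin in the endoplasmic reticulum (log2 change 0.61, limma adjusted p = 0.269), Gad1, a glutamate decarboxylase (-0.66, adjusted p = 0.501) and the islet autoantigen gene Ica1 (-0.47 on 162422_r_at, adjusted p = 0.607). The receptor list had 5 tested probe sets with a median of -0.04, and its smallest p values were those of Ramp3, a partner of the calcitonin receptor (0.93, limma adjusted p = 0.578), the glucagon receptor Gcgr (-0.40, adjusted p = 0.612) and the somatostatin receptor Sstr4 (0.43, adjusted p = 0.616).

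**Figure D4:**
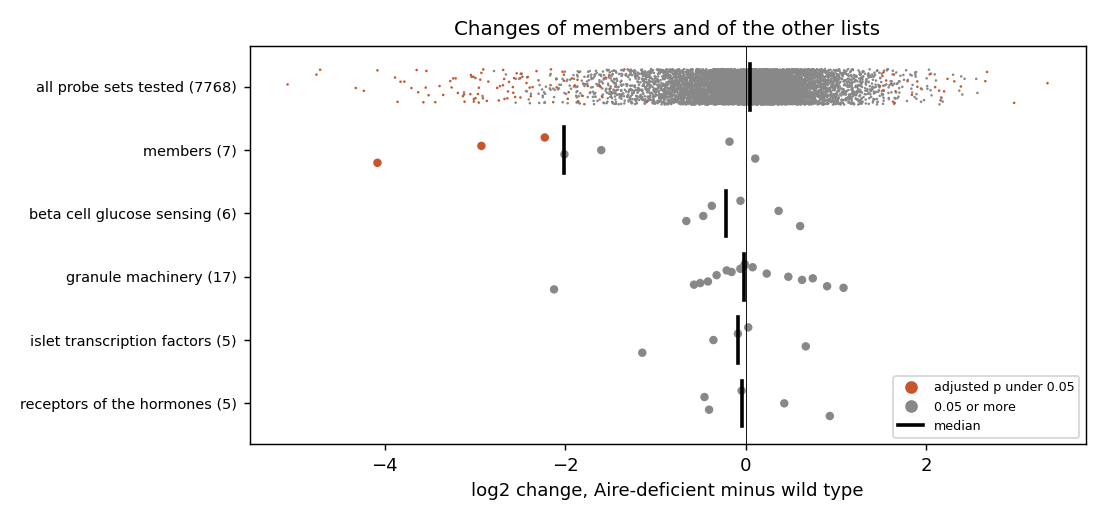
Log2 change (Aire-deficient minus wild type) of all 7768 probe sets tested, of the 7 tested member probe sets and of the tested probe sets of the 4 other lists, orange where the limma adjusted p was under 0.05, with a black bar at each median. The member median is -2.01, over a set that holds Ins2 100150_f_at through its wild-type arrays alone and the Ppy and Chgb probe sets with their help. The medians of the other lists lie between -0.21 and -0.01 and none of their points is orange.

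Igf2, 2 annotated genes away from Ins2, was also lower on 1 of its 2 probe sets. Igf2os, which lies between them, had no probe set of its own. Within 3 annotated genes on each side of the members with a call, Igf2 was the one with a probe set of its own. Igf2, a fetal growth factor related to insulin, measured 81.7, 275 and 116 in wild type and 3.15, 8.53 and 12.2 in Aire-deficient cells on 98623_g_at. It fell by 4.32 ± 0.56 on the log2 scale (SE, limma adjusted p = 0.00473). Like Ins2 100150_f_at, it was highest on wild-type array 2 and lowest on wild-type array 1 among the wild-type arrays. Wild-type array 2 was also the array with the highest beta-actin ratio. The order of the Aire-deficient arrays cannot be compared, since Ins2 100150_f_at lay near or under the floor on all of them. The other Igf2 probe set, 98622_at, was at or under 1.00 on every array. No gene within that distance of Ppy or Chgb had a probe set of its own.

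The probe sets whose pattern over the 6 arrays was most like the mean standardized profile of the 7 tested member probe sets were those of Rnase1, a secreted ribonuclease (Pearson r = 0.99), Gas2, a cytoskeletal protein (0.99), Sytl4, the granule-docking protein granuphilin (0.99), Mup3, a major urinary protein (0.98), and Reg1, a secreted lectin of the pancreas (0.97). Each was lower without overlap between groups. Of these Mup3 passed the threshold, at 22.7, 22.2 and 36.8 in wild type against 5.73, 2.25 and 0.683 in Aire-deficient cells (log2 change -3.21 ± 0.50, SE, limma adjusted p = 0.0107). Sytl4 measured 9.02, 10.1 and 12.8 against 4.03, 0.667 and 1.78, dim on all Aire-deficient arrays, a ratio of at least 1.90 that missed the threshold (limma adjusted p = 0.0848). Rnase1, Gas2 and Sytl4 were tested through their wild-type arrays alone. With 6 arrays in 2 groups, a high r mostly restates the difference between the groups.

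Markers of other cells were summed over each list's probe sets, as a description in which the brightest probe sets weigh most and members that move apart are not seen. The medullary epithelial list of 10 genes summed to 3059 to 3557 in wild type and 3955 to 4415 in Aire-deficient cells, with 9 of 13 probe sets tested and none called (0), while its members Krt5 and Krt14 were dim on all arrays. Most of that sum was H2-Aa, a class II molecule, at 2045, 1859 and 2045 in wild type and 2331 on each Aire-deficient array. The equal values arise because quantile normalization gives the same value to the same rank on each array. As deposited, H2-Aa was 1686, 2086 and 1775 in wild type and 2385, 2816 and 2753 in Aire-deficient cells. Of the genes behind the sort, Epcam, which encodes the antigen of G8.8, measured 234, 251 and 130 in wild type and 102, 79.8 and 86.9 in Aire-deficient cells (log2 change -1.14, limma adjusted p = 0.118, or 0.0315 with the replicate block). Cd80, which encodes B7.1, measured 3.52, 4.92 and 4.25 against 8.80, 13.1 and 11.8 on 93905_at, dim in wild type, and 5.78, 15.8 and 7.32 against 12.5, 15.2 and 16.1 on 93906_s_at. Ptprc, which encodes CD45, measured 5.15, 7.22 and 5.33 in wild type and 7.93, 7.83 and 10.3 in Aire-deficient cells on its brightest probe set, higher without overlap and not called (log2 change 0.56, limma adjusted p = 0.586). The pancreatic acinar list, 4 of whose 8 genes had probe sets, summed to 70.4 to 99.7 and 32.7 to 39.8, with Ctrb1, a chymotrypsinogen, called lower (log2 change -1.75, limma adjusted p = 0.0329, or 0.0741 without wild-type array 2). Cela2a and Cel, the other acinar genes tested, overlapped. The myeloid and dendritic list summed to 222 to 275 and 187 to 218, and its members moved apart, with a median log2 change of -0.23 over 8 tested probe sets. Ly6g, a neutrophil surface protein, was called lower, at 50.9, 12.8 and 28.9 in wild type and at most 1.05 in Aire-deficient cells (at least 4.81-fold, limma adjusted p = 0.00586), and was tested through its wild-type arrays alone. Cd68, a lysosomal protein of macrophages, lay higher without overlap, at 7.93, 4.15 and 9.75 in wild type and 24.7, 20.8 and 19.2 in Aire-deficient cells on 103016_s_at (log2 change 1.65, limma adjusted p = 0.067, or 0.0239 with the replicate block). Lyz2, the brightest of the list, had a log2 change of -0.02 and Itgax one of 0.48 (limma adjusted p = 0.982 and 0.626). Mpo 100414_s_at lay lower with overlap and was not called (log2 change -1.80, limma adjusted p = 0.223). So did Csf1r (-1.54 on 104354_at and -0.44 on 161832_r_at, limma adjusted p = 0.341 and 0.658). Thymocyte (67.7 to 97.5 and 58.3 to 127.7), B cell (42.5 to 73.7 and 35.1 to 54.5), fibroblast (138 to 337 and 157 to 308) and endothelial lists (25.9 to 40.8 and 26.9 to 43.6) overlapped between the genotypes and held no calls. With the replicate block Ms4a1 99446_at of the B cell list was called lower (limma adjusted p = 0.0339). The other tested probe sets of that list differed in direction and were not called with the block. Their log2 changes were -0.59 for Ms4a1 104173_at and 0.47 for Cd79b 161012_at (limma adjusted p = 0.441 and 0.394). Ctrb1 and Ly6g were thus called lower together with the islet transcripts. Mpo and Csf1r lay lower and Cd68 and Ptprc higher, all without a call in the fit without a block. The part of other cells in the falls was not tested.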

How the data were processed

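The authors deposited linear signal intensity per probe set for 6 single-colour arrays, to 1 decimal. Per the labels, the RNA went through T7 polymerase amplification 2 times, a step that favours 3′ ends; the scaling, background correction and software are not given in the sources. Of 12422 non-control probe sets, 10833 named 1 gene, 396 several and 1193 none. Signals were quantile normalized, raised to the 20th percentile (1.8) and log2 transformed; probe sets above the 40th percentile (5.53) on at least 3 arrays were tested with limma 3.58.1 in R 4.3.3 (lmFit, eBayes with a variance trend, 2-sided), each kept apart.

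The members and lists were chosen with earlier results of these data known. Named genes are all members, from each list the 3 probe sets with the smallest p, the 5 most alike in pattern, neighbours of called members, Aire, and those said to have been named after their values were seen; single marker genes and neighbours of uncalled members were also chosen after their values were seen. Each pool is a different set of animals, so the spread behind a p-value holds animals, amplification and hybridisation; the number of arrays limits the precision.

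Same-numbered arrays of both genotypes deviated together from their group means (r = 0.37, 0.20 and 0.19, beside -0.25 to 0.07 for unlike numbers). The labels state no pairing, so pairing by number is inferred from these data alone. Deviations from a group mean cancel within the group, so the values for unlike numbers are not an independent yardstick. The calls reported are nonetheless from the fit without a block, and the exact tests leave the pairing out; blocked values stand beside results where they change a call. Tested on simulated data (7768 probe sets, 200 changed, Aire-deficient against wild type), the procedure recovered 4% of changes of 2-fold, 48% of 4-fold, 92% of 8-fold and 92% of 16-fold, with 11 false calls among 129. The simulated log2 signals were drawn from a normal distribution without a floor or shared array effects. These rates therefore do not cover falls that end at the floor. The alternatives changed the scaling, floor, filter or variance model, or used array weights, a 3′ bias covariate, 1 probe set per gene, the replicate block or only 5 of the 6 arrays. The block without both arrays numbered 2, and the probe set pairs of Ppy, Chga and Chgb, were added after the data were seen. Plots were made in Python 3.11.15 (matplotlib 3.10.9).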

Additional observations from a re-analysis of the deposited data

How the results depend on the processing

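Of 127 member values under alternatives, 106 kept direction and side of the threshold, 9 lost and 7 gained a call, and 5 changed sign; the cause of these shifts was not tested, except that changed filters alter which probe sets are tested. The 3 member calls became 0 with no filter and 0 with a filter asking for all 6 arrays (where the called probe sets were left out), 5 with array weights, 5 with the replicate block, 1 with 1 probe set per gene (Chgb; the called Ins2 and Ppy probe sets were not those kept) and 1 to 4 with 1 array left out. The signs that changed belonged to Ins2 161849_r_at (-0.31 with array weights, -0.33 with the 3′ bias covariate, and from -0.28 without wild-type array 2 to 0.40 without Aire-deficient array 2 when arrays were left out in turn, -0.22 without Aire-deficient array 1) and Chga 92422_at (from -0.41 to 0.11 with arrays left out, the latter without Aire-deficient array 3), neither of which was called. Over all probe sets, 107 lower and 27 higher calls became 10 and 6 with no filter, 40 and 21 with all 6 arrays required, 166 and 72 with array weights, 262 and 150 with the block, 102 and 71 as deposited, 97 and 55 with median scaling, and 25 to 79 and 2 to 16 with 1 array left out. The other lists gained 1 lower call (Scg2, no variance trend) and 1 higher call (Resp18, replicate block). Besides Iapp, Ppy 162464_f_at, Resp18, Aire, Epcam, Ms4a1 99446_at and Cd68 103016_s_at the block changed no other call among the members, the lists, the markers, the neighbours and the 5 genes most alike in pattern. With both arrays numbered 2 left out, the blocked fit called 4 member probe sets lower, without Ppy 162464_f_at. Arrays were left out with the normalization and the tested probe sets of all 6 kept. Signals near the floor limit what can be seen of Gcg, Sst, Pcsk1 and the second Chgb probe set.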

Other observations

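Among genes within 3 annotated genes of members without a call, chosen after their values were seen, Ifih1, a sensor of viral RNA 2 genes away from Gcg, measured 151, 205 and 126 in wild type and 45.8, 54.0 and 55.9 in Aire-deficient cells (log2 change -1.61, limma adjusted p = 0.0276, or 0.056 without wild-type array 2), while Gcg itself was dim on every array. Neighbours without a call lay on both sides: Recql and Golt1b near Iapp were lower without overlap (log2 change -0.52 and -0.49, limma adjusted p = 0.493 and 0.624), while Golga5 near Chga and Ell2 near Pcsk1 were higher without overlap (0.59 for Golga5, 0.49 and 0.64 for Ell2 on 103891_i_at and 103892_r_at, limma adjusted p = 0.462, 0.443 and 0.398). Among all probe sets tested, 10.1% were lower and 10.4% higher without overlap. The other tested neighbours overlapped and were not called. They were Dpp4 and Fap near Gcg (log2 change 0.54 and -0.65), Bcl6 near Sst (-0.30), Lgmn and Itpk1 near Chga (0.09 and 0.29) and Cast near Pcsk1 (0.14). Foxa2, a forkhead factor of endoderm, was too dim to be tested and measured 8.26, 8.89 and 1.96 in wild type and 0.8, 1.27 and 0.567 in Aire-deficient cells.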
